A study of Mus musculus with 6 samples.

Results

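The 10 genes described here are 9 interferon-gamma inducible GTPases and the transcription factor gene Irf1. They were taken by symbol from the 55349 genes of the deposited table: the guanylate-binding protein genes Gbp2, Gbp3, Gbp4, Gbp6 and Gbp7, the immunity-related GTPase genes Igtp, Irgm1, Irgm2 and Iigp1, and Irf1. All 10 passed the filter on low counts and were among the 13268 genes tested. RNA was sequenced from 6 subcutaneous tumours of B16F10, a pigmented mouse melanoma line. In 3 libraries the tumour cells carried a knockdown of the squalene epoxidase gene Sqle (shSQLE, replicates 1, 2 and 5), and 3 came from cells labelled shControl (replicates 1, 4 and 5). The labels give the shControl tumours a wild-type genotype and no tumour a drug treatment. The sources used here do not give the host strain, sex and age, the number of hairpins or clones, or whether each library is a separate animal. The p-values therefore rest on a spread between libraries that could be technical. A tumour library mixes RNA of melanoma cells and host cells, so fewer cells of a type and less RNA per cell cannot be told apart.

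Interferon-gamma, a cytokine of T cells and natural killer cells, binds the receptor made of Ifngr1 and Ifngr2, and the kinases Jak1 and Jak2 pass the signal on. It reaches genes through gamma-activated sites (GAS), among others at the Irf1 promoter, and IRF1 in turn binds interferon-stimulated response elements (ISRE) at a second wave of genes. Guanylate-binding proteins (GBPs) and immunity-related GTPases (IRGs) are a large part of that wave in mouse cells. They gather on vacuoles that hold pathogens and help to break them, and GBPs also help caspase-4-type inflammasomes to sense bacterial products. The IRGM proteins, encoded by Irgm1, Irgm2 and Igtp, hold the effector IRGs such as Iigp1 in check on the cell's own membranes.

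The promoters are shown because each member with a promoter sequence at hand has a match to a GAS, to an ISRE or to both. Whether these elements bear on the members' levels was not tested. RefSeq windows from 250 bases before to 50 after an annotated start (build GRCm38.p6) were matched by symbol for 7 of the 10 members. Windows on an excluded chromosome were not used for the members, so a member there would have none here. Both strands were searched for a GAS, TTCNNNGAA, and for the core of an ISRE, GAAANNGAAA. Capitals mark the matches in the 130 bases before the start, and adjoining capitals are overlapping or neighbouring matches. The first set holds the GBP genes, Gbp2 at chr3:142620533-142620662 (plus strand), Gbp3 at chr3:142559914-142560043 (plus strand) and Gbp7 at chr3:142530206-142530335 (plus strand) where the ISRE core lies on the opposite strand and is printed as its reverse complement.
Gbp2: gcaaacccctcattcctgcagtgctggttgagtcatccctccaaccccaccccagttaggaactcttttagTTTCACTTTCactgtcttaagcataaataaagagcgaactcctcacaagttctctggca
Gbp3: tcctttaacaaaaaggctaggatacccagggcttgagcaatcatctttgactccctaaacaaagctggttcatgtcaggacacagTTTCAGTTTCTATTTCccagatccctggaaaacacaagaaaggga
Gbp7: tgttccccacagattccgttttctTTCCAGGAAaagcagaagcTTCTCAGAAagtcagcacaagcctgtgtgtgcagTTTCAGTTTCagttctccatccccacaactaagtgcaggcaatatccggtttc

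The second set holds the IRGM genes, Igtp at chr11:58199426-58199555 (plus strand), Irgm1 at chr11:48871421-48871550 (minus strand) and Irgm2 at chr11:58214847-58214976 (plus strand). They are shown because Igtp and Irgm2 carry a GAS and an ISRE core side by side, whereas Irgm1 carries overlapping ISRE cores and no GAS match.
Igtp: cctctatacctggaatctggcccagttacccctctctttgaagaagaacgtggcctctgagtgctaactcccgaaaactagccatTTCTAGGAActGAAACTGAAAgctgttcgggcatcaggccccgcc
Irgm1: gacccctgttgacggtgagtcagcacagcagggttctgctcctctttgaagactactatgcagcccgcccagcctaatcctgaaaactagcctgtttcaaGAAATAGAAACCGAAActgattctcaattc
Irgm2: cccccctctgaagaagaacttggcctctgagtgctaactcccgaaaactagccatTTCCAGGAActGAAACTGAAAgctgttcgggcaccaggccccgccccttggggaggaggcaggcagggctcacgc

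Irf1 is shown alone, because its window has a GAS and no ISRE core match. The stretch is Irf1 at chr11:53769884-53770013 (plus strand).
Irf1: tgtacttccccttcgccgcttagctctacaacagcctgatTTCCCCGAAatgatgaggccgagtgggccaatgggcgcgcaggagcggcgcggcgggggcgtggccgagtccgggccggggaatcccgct

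Of the 7 members with a window, 6 had an ISRE core and 4 a GAS (Gbp7, Igtp, Irgm2 and Irf1). Gbp3 and Irf1 have a second window with neither, so that of 9 member windows 6 held an ISRE core and 4 a GAS. Over all 32851 windows of the same length, with no chromosome excluded, 3.44% held an ISRE core and 8.3% a GAS. In Igtp and Irgm2 the GAS is followed after 2 bases by the ISRE core. That arrangement, which was searched for after it had been seen in Igtp, occurred in 5 of the 32851 windows (0.0152%). The 5 windows belong to Igtp, Irgm2, Tgtp1, Tgtp2 and Gm12185, all GTPase genes of the IRG family on chromosome 11. These windows are not independent of each other, since related genes share sequence: Igtp and Irgm2 have an identical run of 61 bases. A match is a description of letters and not a measured binding site.

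**Figure D1:**
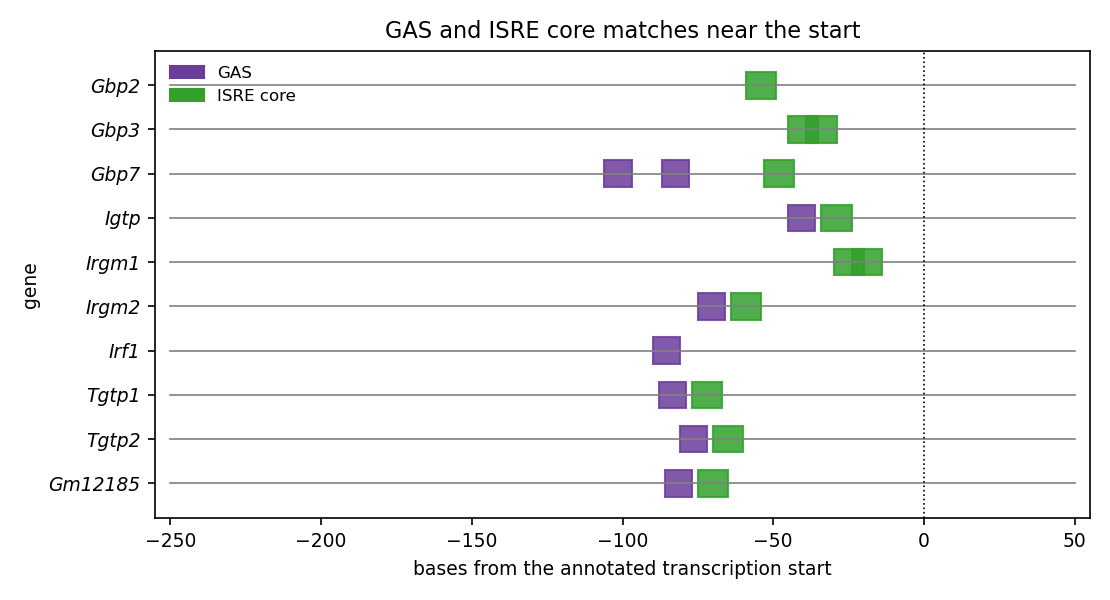
Matches to a GAS (purple) and to an ISRE core (green) in RefSeq promoter windows of 7 members and of 3 related genes that are not members (Tgtp1, Tgtp2 and Gm12185), by distance in bases from the annotated start, with 1 window per gene. For Gbp3 and Irf1 the window with the most matches is drawn, and their second window, which has neither match, is not. Both kinds of match lie side by side in Igtp, Irgm2, Tgtp1, Tgtp2 and Gm12185.

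Total expected counts per library were between 16408622 and 19142185. Sqle, the targeted gene, was at 66.8 to 77.1 CPM (read counts relative to the TMM-scaled library size) in shSQLE and at 146 to 151 CPM in shControl. By the quasi-likelihood test of edgeR, adjusted after Benjamini and Hochberg over all 13268 genes, 0 genes passed an adjusted p of 0.05 (0%), and 413 had an unadjusted p under 0.05. DESeq2 called 6 genes (471 unadjusted) and limma voom 0 (374 unadjusted).

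All 10 members had their highest level in shControl replicate 5 and their lowest in shSQLE replicate 1. Of all genes tested, 13% were highest in shControl replicate 5 and 11% were lowest in shSQLE replicate 1. For 8 of the 10, all but Gbp7 and Irf1, the level in shControl replicate 5 was over 3 times that in every other library, which held for 0.603% of all genes. The second highest library was shControl replicate 1 for 4 members, shSQLE replicate 5 for 3, shSQLE replicate 2 for 2 and shControl replicate 4 for 1.

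Gbp2, whose protein is lipid-modified and coats pathogen vacuoles, stood at 3.27, 19.4 and 22.6 CPM in shSQLE replicates 1, 2 and 5, against 11.7, 7.67 and 108 CPM in shControl replicates 1, 4 and 5. The groups overlapped, since shSQLE replicates 2 and 5 lay above shControl replicates 1 and 4 and below shControl replicate 5. Gbp3, of the same cluster on chromosome 3, had 0.958, 5.08 and 4.97 CPM in shSQLE replicates 1, 2 and 5, against 4.58, 2.48 and 24.1 CPM in shControl replicates 1, 4 and 5. Gbp7, which in mouse macrophages helps to assemble the NADPH oxidase, had 0.732, 3.10 and 3.20 CPM in shSQLE replicates 1, 2 and 5, against 4.41, 1.48 and 12.7 CPM in shControl replicates 1, 4 and 5. The groups overlapped for both genes, with shControl replicate 4 below shSQLE replicates 2 and 5. In shControl replicate 1 Gbp3 lay below those 2 shSQLE libraries and Gbp7 above them. Counts of Gbp7 were low in shSQLE replicate 1, at 13 (exact Poisson 95% interval 6.92 to 22.2, counting error only).

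Gbp4 and Gbp6 lie in a second GBP cluster, on chromosome 5. Gbp4 had 1.30, 4.06 and 3.26 CPM in shSQLE replicates 1, 2 and 5, against 5.17, 2.30 and 44.1 CPM in shControl replicates 1, 4 and 5. Gbp6 had 1.01, 2.28 and 2.76 CPM in shSQLE replicates 1, 2 and 5, against 5.07, 2.30 and 32.1 CPM in shControl replicates 1, 4 and 5. For both, shControl replicate 1 was second highest, and shControl replicate 4 lay among the shSQLE libraries. The expected counts of Gbp6 and Gbp7 were not whole in any of the 6 libraries, so reads may have been divided between them and near copies, and their values are uncertain to that extent.

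Irgm1 and Igtp were the most abundant GTPase members per length. Irgm1, a regulator of vacuole membranes and autophagy, had 21.7, 34.8 and 46.6 CPM in shSQLE replicates 1, 2 and 5, against 33.6, 49.1 and 240.3 CPM in shControl replicates 1, 4 and 5. Here shControl replicate 4 was second highest, unlike in any other member. Igtp, which encodes IRGM3, had 5.18, 12.7 and 17.98 CPM in shSQLE replicates 1, 2 and 5, against 12.5, 13.3 and 172 CPM in shControl replicates 1, 4 and 5. Irgm2 had 2.37, 8.22 and 6.90 CPM in shSQLE replicates 1, 2 and 5, against 7.08, 6.26 and 56.7 CPM in shControl replicates 1, 4 and 5. For Igtp and Irgm2, shControl replicates 1 and 4 differed little from each other and lay within the range of shSQLE. Iigp1, an effector IRG that coats the vacuole of Toxoplasma, had 1.75, 4.92 and 5.35 CPM in shSQLE replicates 1, 2 and 5, against 6.97, 3.07 and 56.3 CPM in shControl replicates 1, 4 and 5. As in Gbp4 and Gbp6, shControl replicate 1 was second highest.

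Irf1, the transcription factor of the group, had the narrowest range of the 10. It stood at 14.2, 24.2 and 37.0 CPM in shSQLE replicates 1, 2 and 5, against 21.6, 21.7 and 86.6 CPM in shControl replicates 1, 4 and 5. Its highest library was 6.10 times its lowest, whereas that ratio was between 11.1 (Irgm1) and 34.0 (Gbp4) in the GTPase genes. Expected counts of Irf1 were not whole in 4 of the 6 libraries.

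**Figure D2:**
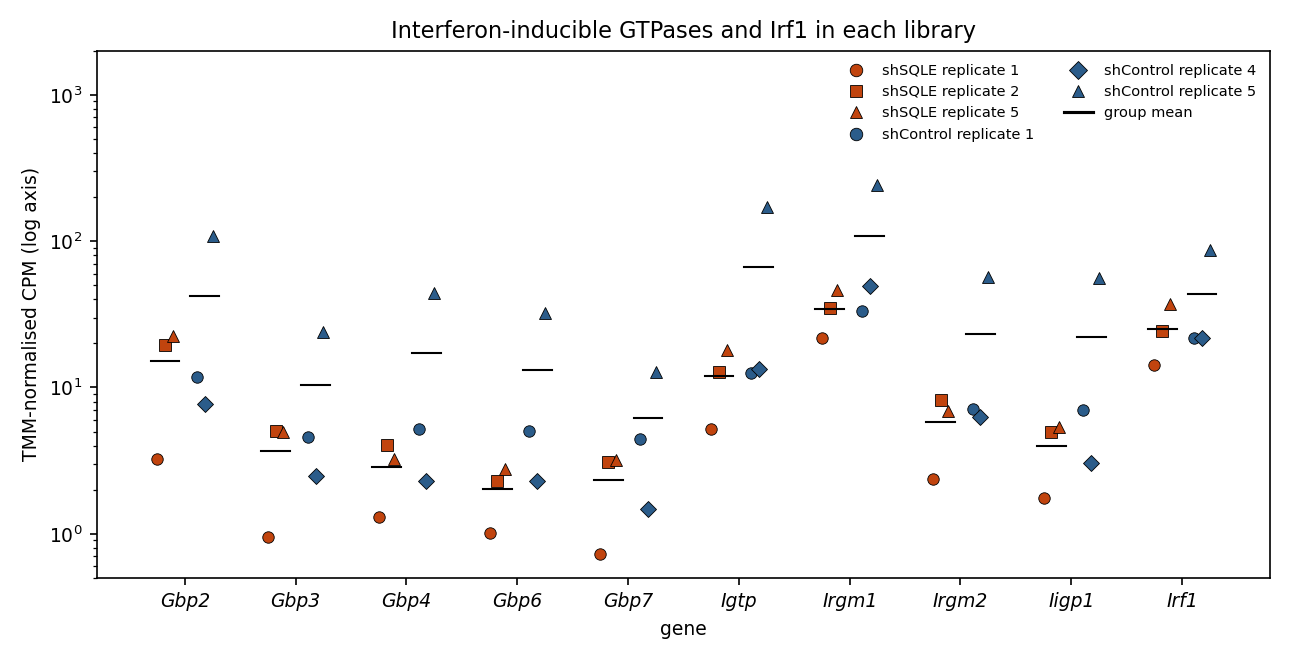
TMM-normalised CPM on a log axis for the 10 members in 3 shSQLE libraries (orange, left of each pair) and 3 shControl libraries (blue, right). Symbols mark the replicate number and bars the group mean, and the shControl replicate 5 triangle is the highest point of all 10 genes while the shSQLE replicate 1 circle is the lowest.

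With all 6 libraries, the 10 members had negative log2 fold changes for shSQLE over shControl, from -2.70 (Gbp6) to -0.79 (Irf1), with a median of -1.82. Over all genes tested, 52.6% had a negative log2 fold change and the median was -0.02. None of the members passed edgeR's test (adjusted p = 0.9996 for each), and 2 had an unadjusted p under 0.05, Gbp6 and Gbp4 (a count between 0 and 7 under the other scalings, filters, tests and left-out libraries), where 1.62% of all genes had such a p and were lower. DESeq2 gave no p for Gbp2, Igtp and Irgm2, and of the 7 members with one 0 passed (3 unadjusted). By limma voom 0 of 10 passed (0 unadjusted). Gbp6 averaged 2.02 ± 0.902 CPM in shSQLE and 13.2 ± 16.5 CPM in shControl (SD, n = 3 each); its log2 fold change was -2.70 (SE 0.95, 95% interval -4.90 to -0.50). For Gbp4 the means were 2.87 ± 1.42 CPM in shSQLE and 17.2 ± 23.3 CPM in shControl (SD, n = 3 each); the log2 fold change was -2.58 (SE 1.08). Igtp averaged 12.0 ± 6.44 CPM in shSQLE and 66.1 ± 92.1 CPM in shControl, and Irf1 25.1 ± 11.4 CPM in shSQLE and 43.3 ± 37.5 CPM in shControl. In shControl the SD was larger than the mean for every GTPase member except Gbp7, where it was 5.84 CPM beside a mean of 6.20 CPM. The groups overlapped for all 10 members (0 of 10 not overlapping and lower, against 3.35% of all genes), and two-sided exact permutation tests gave p from 0.2 to 0.8, where 3 libraries against 3 cannot go below 0.1.

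Without shControl replicate 5 the differences were small and of both signs. The comparison of 3 shSQLE with 2 shControl libraries gave 7 negative and 3 positive log2 fold changes, with a median of -0.23. Over all genes the share of negative values was then 53.2% and the median -0.03. Gbp6 had the most negative value, -0.87 (SE 0.56), and Gbp2 the most positive, 0.64 (SE 0.70). Irf1 was at 0.21 (SE 0.38), Gbp3 at 0.06 (SE 0.69) and Igtp at -0.11 (SE 0.47). By edgeR 0 members passed (adjusted p = 0.9986 for each) and 0 had an unadjusted p under 0.05. The groups still overlapped for all 10 members, whereas 9.73% of all genes had groups that did not overlap and were lower. The 95% intervals for Irf1, -0.68 to 1.10, and for Irgm1, -1.07 to 0.54, were the narrowest, so differences of about that size in either direction are within the error of these libraries. When shSQLE replicate 1 was left out as well, a choice made after seeing the data, 1 of the 10 values was negative and the median was 0.18. Gbp2 then had a log2 fold change of 1.16 by edgeR (adjusted p = 0.468).

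**Figure D3:**
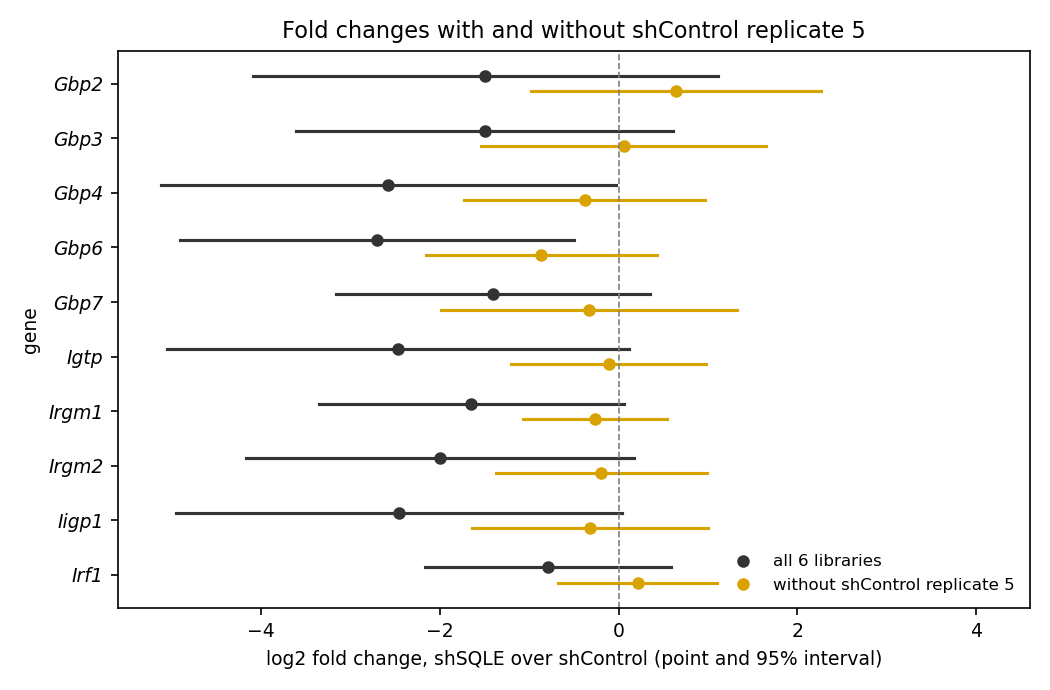
Log2 fold change of shSQLE over shControl from edgeR, with 95% intervals, for the 10 members with all 6 libraries (dark) and without shControl replicate 5 (yellow). The dark points lie between -2.70 and -0.79, and the yellow ones between -0.87 and 0.64, with every yellow interval across 0.

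The size of the excess in shControl replicate 5 differed among the members. Its level over the mean of shControl replicates 1 and 4 was 13.3-fold for Igtp, 11.8-fold for Gbp4, 11.2-fold for Iigp1 and 11.2-fold for Gbp2. It was 8.72-fold for Gbp6, 8.50-fold for Irgm2, 6.83-fold for Gbp3 and 5.81-fold for Irgm1. Gbp7, at 4.32-fold, and Irf1, at 3.997-fold, had the smallest excess. The summed level of the 9 GTPase genes was 38.3, 94.6 and 114 CPM in shSQLE replicates 1, 2 and 5, against 91.1, 88.0 and 747 CPM in shControl replicates 1, 4 and 5. Apart from the extremes, the sum thus stayed between 88.0 and 114 CPM in 4 libraries of both groups. Its GBP part was less steady in these 4 libraries, from 16.2 CPM in shControl replicate 4 to 36.8 CPM in shSQLE replicate 5. The IRG part went from 60.1 CPM in shControl replicate 1 to 76.8 CPM in shSQLE replicate 5.

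Levels between genes were compared as CPM per kilobase of the deposited effective length. By the median over the 6 libraries the order was Irgm1 at 21.2, Irf1 at 12.3, Igtp at 7.37, Gbp2 at 6.79, Gbp3 at 2.30, Irgm2 at 2.16, Iigp1 at 1.98, Gbp4 at 1.57, Gbp6 at 0.933 and Gbp7 at 0.638 CPM per kilobase. Irgm1 was above Irf1 in all 6 libraries, as was Gbp2 above Gbp3, Iigp1 above Gbp4, Gbp4 above Gbp6 and Gbp6 above Gbp7. Gbp3 was above Irgm2 in only 2 of 6 libraries and Irgm2 above Iigp1 in 4 of 6, so the order of these 3 was not fixed. Irf1 was above Igtp in 5 of 6 libraries; in shControl replicate 5 Igtp reached 97.5 and Irf1 46.5 CPM per kilobase.

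Across the 6 libraries the log2 CPM of the members went together, with a Pearson r from 0.818 (Gbp7 and Irgm1) to 0.996 (Gbp4 and Iigp1) over 45 pairs and a median of 0.946. Over the 5 libraries without shControl replicate 5 the median was 0.854 and the lowest 0.436 (Gbp4 and Irgm1). These values are a description: the 2 genes of a pair are measured in the same libraries, whose cell type markers differ. The tested genes outside the group whose centred profile was nearest to the members' mean, by root-mean-square difference over the 6 libraries, were Il18bp (0.23 on the log2 scale), Ifi206 (0.26), Sncg (0.28), Tap1 (0.29), Tgtp2 (0.29), Cxcl9 (0.29), Gm43302 (0.31), Epsti1 (0.32), Sp110 (0.33) and Psmb8 (0.33). Their Pearson r with the members' mean was between 0.970 and 0.993 over 6 libraries. Il18bp, which encodes the secreted inhibitor of interleukin-18, had 1.92, 4.01 and 4.80 CPM in shSQLE replicates 1, 2 and 5, against 3.60, 3.30 and 29.5 CPM in shControl replicates 1, 4 and 5. Of these 10, Tap1 and Psmb8 belong to class I antigen processing, Cxcl9 is a T cell chemokine and Tgtp2 is another IRG gene. Sncg encodes a synuclein.

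Of the pathway above Irf1, the receptor and kinase genes were not highest in shControl replicate 5, whereas Ifng was. The ligand gene Ifng had 0, 2 and 0 counts in shSQLE replicates 1, 2 and 5, against 1, 0 and 12 counts in shControl replicates 1, 4 and 5, and did not pass the filter. The exact two-sided Poisson 95% interval was 0 to 3.69 for a count of 0 and 6.20 to 21 for the 12 counts. The receptor genes were at 15.1 to 18.9 CPM in shSQLE and 17.5 to 19.8 CPM in shControl for Ifngr1, and at 53.7 to 60.4 CPM in shSQLE and 47.3 to 54.3 CPM in shControl for Ifngr2. The kinase gene Jak1 was at 61.1 to 74.4 CPM in shSQLE and 54.4 to 94.7 CPM in shControl, and Jak2 at 9.13 to 10.4 CPM in shSQLE and 7.44 to 17.8 CPM in shControl. For both kinases the highest library was shControl replicate 1, not replicate 5.

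Of the 12 tested genes of interferon-gamma signalling, 9 had a negative and 3 a positive log2 fold change (median -0.10), 0 passed edgeR's test and 1 had an unadjusted p under 0.05. That gene was Usp18, a protease that removes ISG15 and restrains interferon signalling, at -2.05 (SE 0.68). Socs1, an inducible inhibitor of JAK kinases, had 2.25, 3.55 and 5.35 CPM in shSQLE replicates 1, 2 and 5, against 1.96, 3.13 and 10.7 CPM in shControl replicates 1, 4 and 5. Socs1 was thus also highest in shControl replicate 5, but its lowest library was shControl replicate 1. Without shControl replicate 5 the list had 7 negative and 5 positive values (median -0.04), with Usp18 at -0.86 (SE 0.49).

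**Figure D4:**
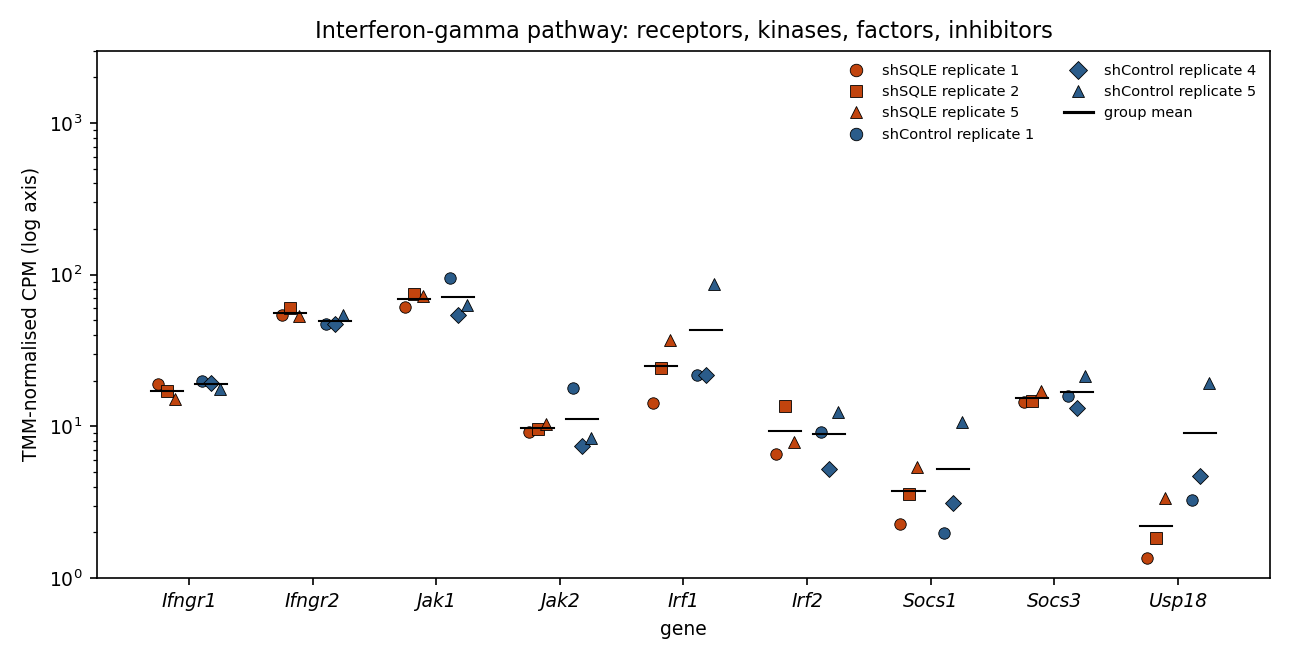
TMM-normalised CPM on a log axis of the interferon-gamma receptor genes, kinases, Irf1 with its antagonist Irf2, and the inhibitors Socs1, Socs3 and Usp18, in 3 shSQLE libraries (orange, left) and 3 shControl libraries (blue, right); bars are group means. The shControl replicate 5 triangle stands above the other points for Irf1, Socs1, Socs3 and Usp18, and among them for the receptors and kinases.

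A further list held other interferon regulatory factors and IRF2-binding proteins, which are not such factors themselves. Of its 9 tested genes 6 had a negative log2 fold change (median -0.41). The binding protein genes Irf2bp1, Irf2bp2 and Irf2bpl were at 0.01, -0.03 and -0.41, so the median is the value of Irf2bpl. Of the 9 genes 0 passed edgeR's test and 3 had an unadjusted p under 0.05, all lower in shSQLE. Irf9, a DNA-binding factor of the type I interferon response, had 9.13, 10.9 and 11.3 CPM in shSQLE replicates 1, 2 and 5, against 13.3, 21.5 and 42.0 CPM in shControl replicates 1, 4 and 5. Its groups did not overlap (exact permutation p = 0.1, the smallest possible), and its log2 fold change was -1.30 (SE 0.38) with all libraries and -0.74 (SE 0.29) without shControl replicate 5. Irf8, a factor of myeloid cells, was at -1.24 (SE 0.50), and at -0.33 (SE 0.30) without shControl replicate 5. Irf2, which competes with IRF1 for ISRE sites, was named after its values were seen. It had 6.59, 13.7 and 7.83 CPM in shSQLE replicates 1, 2 and 5, against 9.10, 5.19 and 12.5 CPM in shControl replicates 1, 4 and 5. It did not follow Irf1, and its log2 fold change was 0.07 (SE 0.39).

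Of 29 other interferon-inducible GTPase symbols listed, 23 were in the table and 13 were tested. All 13 had a negative log2 fold change (median -1.74), 0 passed edgeR's test, and 6 had an unadjusted p under 0.05. The genes with the smallest p were Gvin2, a very large inducible GTPase, at -1.57 (SE 0.57), and Gbp10 at -3.20 (SE 1.20), whose counts were not whole in any library. Gvin2 had 0.451, 1.47 and 1.10 CPM in shSQLE replicates 1, 2 and 5, against 4.14, 1.30 and 3.61 CPM in shControl replicates 1, 4 and 5. It was thus highest in shControl replicate 1 and not in replicate 5. The IRG genes Tgtp2, at 8.75-fold, and Ifi47, at 4.08-fold, named after their values were seen, stood above their next highest library in shControl replicate 5. Irgq, a gene of the IRG family also named after its values were seen, was at 17.5 to 23.8 CPM in shSQLE and 20.1 to 23.0 CPM in shControl (-0.02, SE 0.20). Without shControl replicate 5, 11 of 14 genes then tested were negative (median -0.26).

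Other known targets of interferon-gamma or IRF1 were negative for 28 of 31 tested genes (median -0.93), with 0 past edgeR's test and 1 at an unadjusted p under 0.05, and 26 of the 31 were highest in shControl replicate 5. Parp14, an ADP-ribosyltransferase induced by interferons, had 2.87, 4.72 and 4.63 CPM in shSQLE replicates 1, 2 and 5, against 7.08, 5.96 and 26.6 CPM in shControl replicates 1, 4 and 5. Its groups did not overlap (exact permutation p = 0.1), with a log2 fold change of -1.70 (SE 0.56). Tap1, the peptide transporter subunit, was at -1.46 (SE 0.71). Without shControl replicate 5 the list had 12 negative and 19 positive values (median 0.07), with Parp14 at -0.68 (SE 0.36) and Tap1 at -0.17 (SE 0.40).

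Genes whose products work with GBPs and IRGs were less uniform, apart from the signs of the inflammasome genes. Of the 10 genes of the ATG conjugation system, which guides these GTPases to vacuoles, 1 was highest in shControl replicate 5, and 3 had negative and 7 positive log2 fold changes (median 0.06). Atg7 was at 0.34 (SE 0.20) and Map1lc3a at 0.32 (SE 0.22). Isoprenoid lipids anchor some GBPs. Of the 8 genes for making or attaching these lipids, or for processing the proteins that carry them, 0 were highest in shControl replicate 5. Of the 8, 4 had negative and 4 positive log2 fold changes (median 0.02). The shared subunit gene of the farnesyl and geranylgeranyl transferases, Fnta, was at 0.29 (SE 0.23) and Fntb at 0.25 (SE 0.21). Of the 6 tested inflammasome genes 3 were highest in shControl replicate 5, and all 6 were negative (median -0.39), with Gsdmd, the pore protein of pyroptosis, at -0.82 (SE 0.40) and Casp1, also on the list of targets, at -0.71 (SE 0.36). Of these 3 lists 0 genes passed edgeR's test and 0 had an unadjusted p under 0.05.

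Markers of host cells also differed between the libraries. The summed level of 17 macrophage markers, none at 0 in any library, was 116 to 583 CPM in shSQLE and 199 to 678 CPM in shControl. Its highest and lowest libraries were those of the members. In shControl replicate 5 the macrophage sum was 1.16 times the next highest, in shSQLE replicate 5, and the sum of the 9 GTPase genes was 6.57 times its own. GTPase CPM per macrophage marker CPM was 0.330, 0.298 and 0.195 in shSQLE replicates 1, 2 and 5, against 0.267, 0.442 and 1.10 in shControl replicates 1, 4 and 5. With the macrophage marker mean as a covariate the median log2 fold change of the members was -0.94 in place of -1.82, with all 10 negative and 0 past edgeR's test.

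The 19 T and NK cell markers summed to 6.82 to 20.3 CPM in shSQLE and 11.8 to 43.4 CPM in shControl, with 4 of them tested. In 8 of the 19 (Cd3g, Cd8a, Cd8b1, Ncr1, Klrb1c, Nkg7, Gzma and Tbx21) at least 1 library had a count of 0. Thy1, which fibroblasts also express, made up much of that sum. The other 18 markers summed to 1.13, 5.07 and 6.12 CPM in shSQLE replicates 1, 2 and 5, against 4.41, 3.95 and 23.0 CPM in shControl replicates 1, 4 and 5. These sums rest on 20 to 422 counts. The highest and lowest libraries were again those of the members. Per CPM of these 18 markers, the GTPase sum was 34.0, 18.6 and 18.5 in shSQLE replicates 1, 2 and 5, against 20.6, 22.3 and 32.4 in shControl replicates 1, 4 and 5. On this ratio shControl replicate 5 came second, below shSQLE replicate 1. The part of these cells in the members' levels was not tested.

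Endothelial markers were not highest in shControl replicate 5. Their sum was 90.8 to 103 CPM in shSQLE and 77.5 to 195 CPM in shControl, highest in shControl replicate 1, and none of the 10 was at 0 in any library. All 10 had a negative log2 fold change, like the members, with a median of -0.54 for all libraries and -0.58 without shControl replicate 5. With their mean as a covariate the median of the members was -1.47. Fibroblast markers summed to 62.5 to 415 CPM in shSQLE and 142 to 546 CPM in shControl, also highest in shControl replicate 1. Dendritic cell markers were sparse, at 6.31 to 10.8 CPM in shSQLE and 5.96 to 13.2 CPM in shControl, highest in shControl replicate 5. Of these, Flt3, Xcr1, Clec9a and Siglech were at 0 in at least 1 library. B cell markers summed to 4.96 to 6.29 CPM in shSQLE and 4.85 to 12.3 CPM in shControl, also highest in shControl replicate 5. Of the B cell markers, 3 of 6 were at 0 in at least 1 library. Neutrophil markers summed to 2.23 to 7.12 CPM in shSQLE and 1.59 to 4.68 CPM in shControl, highest in shSQLE replicate 5. Their genes S100a8, Cxcr2 and Ly6g were at 0 in at least 1 library. Adipocyte markers summed to 20 to 27.7 CPM in shSQLE and 20.8 to 176 CPM in shControl, highest in shControl replicate 5, with 5 of 7 at 0 in at least 1 library (Adipoq, Plin1, Cidec, Retn and Pck1). All 4 tested adipocyte markers were negative with an unadjusted p under 0.05 (median -2.54), and 0 passed edgeR's test. Skeletal muscle markers summed to 31.3 to 1480 CPM in shSQLE and 14.4 to 155 CPM in shControl, highest in shSQLE replicate 5. The 7 melanocyte markers, Mlana, Pmel, Tyr, Tyrp1, Dct, Mitf and Sox10, had no 0 and summed to 14300 to 16600 CPM in shSQLE and 12700 to 15000 CPM in shControl. The part of these cell types in the members' levels was not tested.

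**Figure D5:**
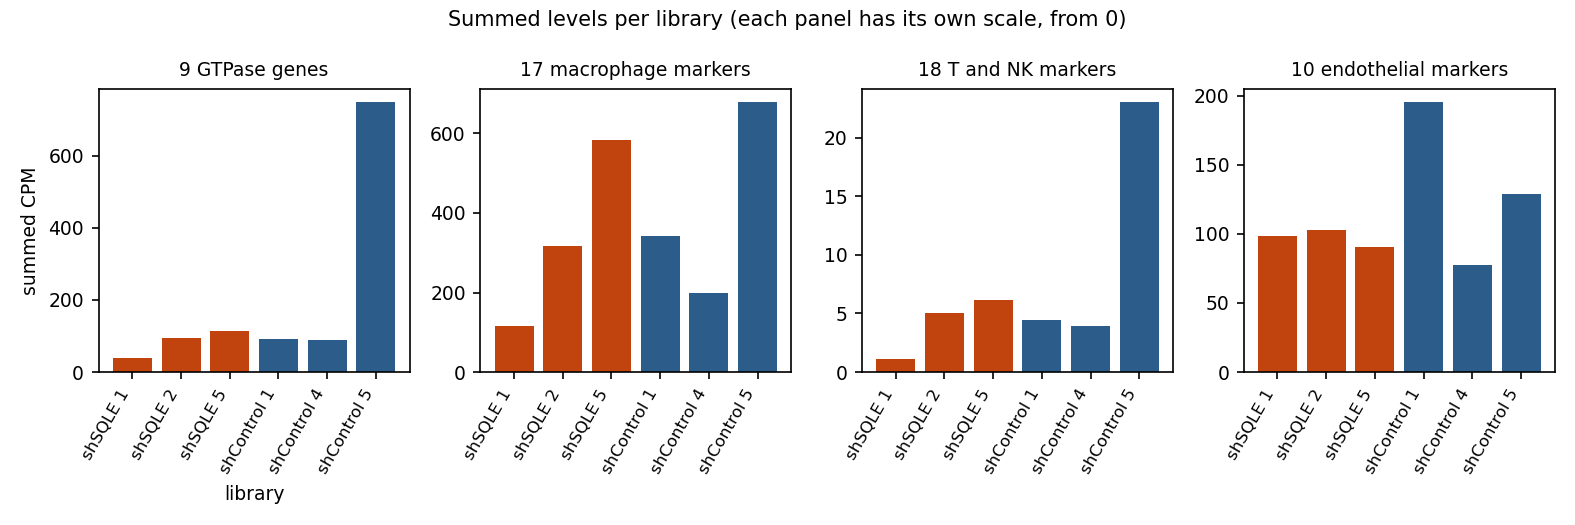
Summed CPM per library of the 9 GTPase members, of 17 macrophage markers, of 18 T and NK cell markers (without Thy1) and of 10 endothelial markers, in shSQLE (orange) and shControl (blue) libraries, each panel with its own axis from 0. The GTPase sum is 747 CPM in shControl replicate 5 and at most 114 CPM elsewhere, while the macrophage sum there, 678 CPM, is close to the 583 CPM of shSQLE replicate 5.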

How the data were processed

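RNA sequencing of 6 subcutaneous tumours was analysed, 3 shSQLE and 3 shControl, grouped and numbered by their titles. The authors deposited 1 table of expected counts, beside each gene's length and effective length (bases). The submitters' processing notes name build GRCm39 and the tools STAR, RSEM, FastQC and DESeq2; the sources used here give no version, annotation release or strand setting. Expected counts divide reads that match several genes: per library, 11.4% to 12.7% of nonzero values were not whole.

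Counts were rounded and filtered with filterByExpr (minimum count 10, minimum total 15), scaled by TMM and tested with edgeR 4.0.16 in R 4.3.3 (glmQLFit, robust, glmQLFTest) with group as the only term, with Benjamini-Hochberg adjustment over all genes at 0.05. The SE is the log2 fold change over the square root of F. Log2 CPM used a prior count of 2. Scripts were tested on simulated data. No 2 libraries of a group agreed within counting noise, so none was taken as a duplicate. Alternatives were DESeq2 1.42.0, limma 3.58.1 voom, other scalings, no filter, robust=FALSE, unrounded counts, marker means as covariates, each library left out, and a block for the replicate number. Named genes are all members, the 2 genes of each pathway list with the smallest p, the signalling genes by role, and the 10 genes nearest to the members' mean profile; others are said to be named after their values were seen, and 1 gene of the rule is not reported here. Members and lists were chosen with earlier results of these data known. Promoter sequences are from RefSeq (GRCm38.p6), matched by symbol, so their coordinates are not those of the count table's build. Figures were drawn with matplotlib 3.10.9.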

Additional observations from a re-analysis of the deposited data

How the results depend on the processing

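The signs of the members depended on shControl replicate 5, the only library whose removal alone changed any of them. Leaving out shSQLE replicate 1 changed signs only when shControl replicate 5 was left out as well. Under all other scalings, filters, tests and covariates tried, and without each library other than shControl replicate 5, all 10 members kept a negative log2 fold change. Leaving out 1 library at a time gave a median from -2.25 to -0.23 and values from -1.98 to 0.64 for Gbp2, -1.96 to 0.057 for Gbp3 and -1.17 to 0.21 for Irf1, the upper ends without shControl replicate 5. Without both shControl replicate 5 and shSQLE replicate 1, a choice made with the data seen, the members had a median of 0.18, 1 member was negative and 17 genes in all were called. The values were then 1.16 for Gbp2, 0.55 for Gbp3, 0.012 for Gbp4, 0.14 for Gbp7, 0.28 for Igtp, 0.0086 for Irgm1, 0.22 for Irgm2, 0.076 for Iigp1 and 0.53 for Irf1. Over all genes, DESeq2 called 6, and leaving out 1 library gave 0 to 31 calls, the highest without shSQLE replicate 1. No scaling moved the median of all genes by more than 0.063.

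Replicate numbers 1 and 5 occur in both groups, but nothing says that they mark shared animals or days. Deviations from the group means correlated at -0.13 for number 1 and 0.07 for number 5, and libraries of unlike number at -0.479 to 0.412, so whether the numbers pair libraries is unknown. With the replicate block the fit has little residual freedom. In it shSQLE replicate 2 and shControl replicate 4 share their number with no other library. Its fold changes therefore rest on replicates 1 and 5 of each group, which include the members' lowest and highest libraries. It called 41 of 13268 genes, among them 6 of the 10 members (Gbp2, Gbp3, Gbp4, Gbp6, Irgm2 and Iigp1), and gave a member median of -2.29. The depth limits Gbp3, Gbp6 and Gbp7 most, with 13 to 18 counts in shSQLE replicate 1.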

Other observations

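In shControl replicate 5, 80 of the 13268 tested genes were over 3 times their level in every other library. They included 8 of the 10 members, 9 of 13 other interferon-inducible GTPase genes and 12 of 31 other interferon-gamma or IRF1 targets. Also among them were 2 of 12 genes of interferon-gamma signalling. Of the 9 tested interferon regulatory factor and IRF2-binding protein genes they included 2 (Irf7 and Irf8). Of the tested host cell markers they included 3 of 4 for adipocytes, 1 of 4 for T and NK cells (Nkg7) and 0 of 17 for macrophages. Of the 80, 43 were in no list. Named after their values were seen, the largest of these were Apol9a, at 19.4 times its next highest library, Apol9b at 15.3, Gm43302 at 10.2, Lrg1 at 9.83, Zbp1 at 8.93 and Oasl2 at 8.81. Apol9a and Apol9b are near copies of each other, so their counts may share reads. Zbp1 is a sensor of Z-form nucleic acid and Oasl2 belongs to the 2′-5′-oligoadenylate synthetase family, both known interferon-induced genes.

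The ratio of Gbp2 to Gbp6 CPM, also singled out after its values were seen, was 3.22, 8.51 and 8.20 in shSQLE replicates 1, 2 and 5, against 2.31, 3.33 and 3.37 in shControl replicates 1, 4 and 5. The shSQLE libraries 2 and 5 were thus above all shControl libraries and shSQLE replicate 1 was among them, while shControl replicate 5, with far the highest level of both genes, had a ratio like that of shControl replicate 4. The counts of Gbp6 were not whole, and this ratio was not tested.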
